A study of Mus musculus with 3 samples.

Results

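The genomic regions described here were open in SOX2-ON cells and in wild-type caudal epiblast-like cells (CEpiLCs) by the peak lists of the study, and were not covered by the peak list of SOX2-OFF cells. They were chosen by those calls: the peaks of the 3 lists were merged wherever they touched, on 16 autosomes (chromosomes 6, 8 and 11 were left out), and a merged region was kept when it held a peak of SOX2-ON and a peak of CEpiLC and none of SOX2-OFF. This gave 5590 of 144115 merged regions (3.88%), called members below. Of the other regions, 44977 were in all 3 lists, 12480 in SOX2-OFF and CEpiLC only, 9326 in SOX2-ON and SOX2-OFF only, and 23595, 19256 and 28891 in SOX2-ON, SOX2-OFF or CEpiLC alone.

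The 3 samples were ATAC-seq libraries of mouse cells of the HM1 line (strain 129), 1 library per state and 50000 cells each, so no difference between states could be tested against replicate error. SOX2-ON and SOX2-OFF cells carried Sox2-/- alleles and a doxycycline-inducible Sox2 transgene at the Hprt locus. The alleles were made by gene editing in embryonic stem cells, with clones picked afterwards. SOX2-ON and SOX2-OFF cells were kept as stem cells in 1 µg/ml doxycycline. It stayed in the medium of SOX2-ON cells during differentiation and was withdrawn for SOX2-OFF cells. CEpiLCs were the wild-type parental line without treatment. By the study this line was HM1 TetON, which already carried the rtTA activator at Rosa26, so that all 3 states had it. All 3 were cultured for 2 days with 10 ng/ml bFGF and 5 µM LGK974, a blocker of WNT ligand secretion, and then with the WNT pathway agonist CHIR99021 as well until 72 h. The stem cells had been grown on feeder fibroblasts before differentiation. The engineered line and the parental line differ in more than SOX2, and with 1 library each a difference between states cannot be told apart from a difference between libraries.

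SOX2 is a high-mobility-group transcription factor of pluripotent and neural cells, which can bind DNA within nucleosomes and in the pluripotent epiblast often acts next to OCT4. WNT signalling acts through β-catenin and the TCF/LEF factors, and in the posterior epiblast it turns on T and the Cdx genes. ATAC-seq reads mark DNA that a transposase can reach, such as promoters and active enhancers.

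The DNA of 10 members is shown first. The members nearest Hic2, Grhl2, Olig3 and Usp7 are among the strongest by the naming rule (the worse of the ranks a member holds in both lists). The letters near Hic2 recurred in part elsewhere and those near Grhl2 were nearly periodic, as described after the sequences. These members need not be typical of strong members. The members nearest Lrrc4c, Cdyl, Fhad1, Klhl7 and Jade1 were chosen after their values were seen, as the best ranked members with a SOX match that were not mostly repeat and held 1 copy of their central 50 bp, and the member nearest Yipf7, one of the 20 named by rank, for its OCT-SOX match. The letters are the plus strand of the C57BL/6J reference (mm10, GRCm38; RefSeq), whereas the cells are of strain 129. Each is the central 200 bp of the member, or the whole member if narrower. Capitals mark matches on either strand. The SOX motif was searched as AACAATG, a core that factors such as SOX2 prefer, which reads CATTGTT where it lies on the minus strand. For POU factors such as OCT4 the letters were ATGCAAA, and for the WNT effectors of the TCF/LEF family they were CTTTGAT. The T-box motif, that of T and its relatives, was GGTGTGA, and the homeobox motif of CDX and HOX factors was TTTATNG. Factors of the GATA family were searched with AGATAAG, Krüppel-like factors (KLF) with GGGTGTG, and the zinc finger factors of the ZIC family with CAGCAGG. Last came the OCT-SOX composite, in which a SOX site and an OCT site adjoin, matched with up to 3 mismatches. The composite contains the SOX and POU/OCT letters, and the KLF and T-box letters share a stretch, so that these can overlap.
Hic2, chr16:17222296-17222463: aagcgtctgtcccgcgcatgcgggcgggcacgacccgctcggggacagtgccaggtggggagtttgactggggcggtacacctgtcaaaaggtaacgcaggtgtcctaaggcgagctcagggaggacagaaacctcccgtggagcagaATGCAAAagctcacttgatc
Grhl2, chr15:37203209-37203391: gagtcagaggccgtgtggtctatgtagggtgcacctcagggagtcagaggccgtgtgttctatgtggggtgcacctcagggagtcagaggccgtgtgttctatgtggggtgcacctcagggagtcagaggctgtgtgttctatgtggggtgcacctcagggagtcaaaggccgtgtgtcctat
Olig3, chr10:19329448-19329647: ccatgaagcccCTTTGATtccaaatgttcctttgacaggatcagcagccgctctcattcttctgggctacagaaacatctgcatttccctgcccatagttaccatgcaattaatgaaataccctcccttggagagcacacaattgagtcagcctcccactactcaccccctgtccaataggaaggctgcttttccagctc
Usp7, chr16:8778830-8779029: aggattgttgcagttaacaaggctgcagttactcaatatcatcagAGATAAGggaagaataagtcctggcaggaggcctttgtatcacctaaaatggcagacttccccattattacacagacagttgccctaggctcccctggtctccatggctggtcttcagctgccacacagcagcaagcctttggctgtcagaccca
Yipf7, chr5:69489160-69489359: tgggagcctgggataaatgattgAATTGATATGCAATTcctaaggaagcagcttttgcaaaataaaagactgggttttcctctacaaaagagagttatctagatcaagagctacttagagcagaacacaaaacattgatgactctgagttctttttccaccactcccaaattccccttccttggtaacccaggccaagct
Lrrc4c, chr2:96580455-96580654: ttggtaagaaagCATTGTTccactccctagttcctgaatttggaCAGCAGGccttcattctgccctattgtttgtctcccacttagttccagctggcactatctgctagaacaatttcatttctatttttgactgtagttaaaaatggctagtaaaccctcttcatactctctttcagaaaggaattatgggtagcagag
Cdyl, chr13:35738345-35738544: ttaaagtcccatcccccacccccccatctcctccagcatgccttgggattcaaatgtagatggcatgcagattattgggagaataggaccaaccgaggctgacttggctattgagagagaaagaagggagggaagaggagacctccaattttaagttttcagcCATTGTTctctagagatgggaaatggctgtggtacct
Fhad1, chr4:141998383-141998582: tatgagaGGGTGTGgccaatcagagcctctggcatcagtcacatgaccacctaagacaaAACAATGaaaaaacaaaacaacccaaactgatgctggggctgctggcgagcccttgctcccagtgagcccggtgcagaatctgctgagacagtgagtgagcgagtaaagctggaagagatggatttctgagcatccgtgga
Klhl7, chr5:24123753-24123952: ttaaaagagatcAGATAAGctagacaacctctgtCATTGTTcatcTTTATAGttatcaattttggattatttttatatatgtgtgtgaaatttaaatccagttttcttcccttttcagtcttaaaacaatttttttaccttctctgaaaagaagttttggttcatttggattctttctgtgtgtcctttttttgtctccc
Jade1, chr3:41343720-41343919: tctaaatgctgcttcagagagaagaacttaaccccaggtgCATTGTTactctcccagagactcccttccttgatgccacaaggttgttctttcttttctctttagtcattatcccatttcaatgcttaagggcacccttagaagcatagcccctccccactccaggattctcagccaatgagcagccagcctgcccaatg
Lrrc4c, Cdyl, Fhad1, Klhl7 and Jade1 each held 1 SOX match. Lrrc4c also held a ZIC match, Fhad1 a KLF match, and Klhl7 a CDX/HOX and a GATA match in DNA with a GC content of 29.5%. Since the window is centred on the merged region, those of Lrrc4c and Klhl7 lie in the SOX2-ON peak but beside the narrower CEpiLC peaks of the member, and that of Jade1 lies only in part within its CEpiLC peak. The member nearest Yipf7 held the composite and no exact SOX match. Grhl2 held no match to these motifs, and its letters were nearly periodic, with 95.8% of bases equal to the base 40 bp further on. The central 50 bp of the Hic2 sequence were found once, but of 13 pieces of 20 bases taken from it, 1 to 6 also occurred at 8 other places on the autosomes, with the 6 in Gphn.

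The 3 lists held 129843 to 131520 peaks, of which 85388 (SOX2-ON), 86563 (SOX2-OFF) and 95025 (CEpiLC) lay on the autosomes used. Read depth was not given, and the lists were unlike in strength: 43.9%, 40.0% and 23.95% of these peaks had a −log10 q of at least 5. The SOX2-OFF list was not the smallest, and covered 80.7 Mb against 68.1 Mb in SOX2-ON and 68.0 Mb in CEpiLC. Chromosomes 6, 8 and 11 held 32.9% and 33.1% of the peaks of the engineered samples but 26.3% of those of CEpiLC. Most starts of marker genes had a peak in every state: 15, 14 and 14 of 15 naive pluripotency genes, 23, 23 and 24 of 24 caudal genes and 12, 15 and 15 of 18 feeder fibroblast genes had a peak within 1 kb of a coding start in SOX2-ON, SOX2-OFF and CEpiLC.

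Most members were weak peaks in both lists. Fold enrichment, the ATAC signal of a peak over its local background, had a median of 1.58 in SOX2-ON (10th to 90th percentile 1.498 to 2.05) and of 1.67 in CEpiLC (1.58 to 1.84). The −log10 p had a median of 3.54 in each, against 10.2 and 6.61 for regions of all 3 lists. Other regions that lacked a list were weak too. Regions of SOX2-OFF and CEpiLC had medians of 3.90 and 3.75, and those of SOX2-ON and SOX2-OFF 4.57 and 4.11. Regions of SOX2-ON, SOX2-OFF or CEpiLC alone had 3.76, 3.26 and 3.37. Only 84 members reached a −log10 q of 5 in both lists, although 846 did so in SOX2-ON and 159 in CEpiLC. A fold enrichment of at least 2 was found for 613 members in SOX2-ON, 183 in CEpiLC and 72 in both. These values took part in choosing the members, since a peak had to be called, and are given as a description.

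The peaks of both lists lay on top of each other in most members. SOX2-ON had the higher rank in 2572 members (46.0%). The overlap covered a median of 97.6% of the shorter peak and at least 50% in 4725 members. A single SOX2-ON peak met a single CEpiLC peak in 5548 members, with median widths of 423 and 388 bp.

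**Figure D1:**
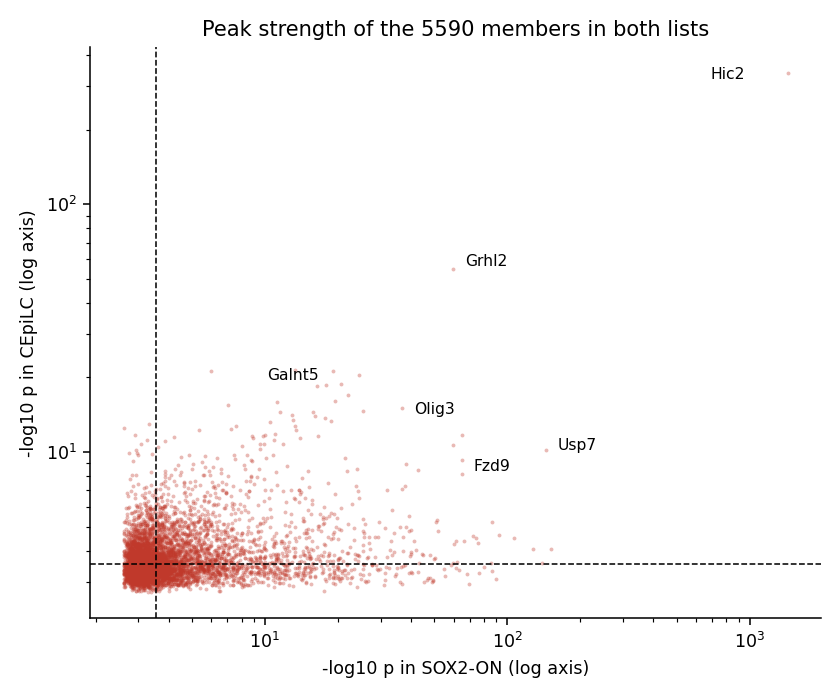
Each point is 1 of the 5590 members, with its −log10 p in SOX2-ON on the x axis and in CEpiLC on the y axis, both log axes; dashed lines are the medians of 3.54. Most points crowd at the lower left, a tail extends along the SOX2-ON axis, and the member nearest Hic2 stands alone at the upper right.

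Strong regions of SOX2-ON and CEpiLC were nearly all in the SOX2-OFF list too. Of 50567 regions held by both, SOX2-OFF lacked the 5590 members, 11.1% (Wilson 95% interval 10.8 to 11.3). Where both peaks were within the first 10000 ranks, SOX2-OFF lacked 1 of 6334 regions (0.0158%), and within ranks 10001 to 20000 it lacked 4 of 5617 (0.0712%). The share then climbed to 1.11%, 4.41%, 11.02% and 21.1%, and reached 35.2% (34.3 to 36.2) beyond rank 100000. It depended on both lists: SOX2-OFF lacked 41.4% of regions in the weakest 20% of both (2095 of 5056), 14.2% of those strong in SOX2-ON and weak in CEpiLC (15 of 106), and 2 of 8459 in the strongest 20% of both. These intervals cover counting error over regions only.

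The mirror classes were larger. SOX2-ON lacked 21.7% of the 57457 regions of SOX2-OFF and CEpiLC, and CEpiLC lacked 17.2% of the 54303 regions of SOX2-ON and SOX2-OFF. At ranks 20001 to 40000 the shares lacked were 1.11% by SOX2-OFF (0.911 to 1.35), 7.04% by SOX2-ON (6.58 to 7.53) and 7.60% by CEpiLC (7.10 to 8.14), and at ranks 60001 to 80000 they were 11.02%, 30.4% and 23.4%. The members were thus the smallest of the 3 classes by share at each rank beyond 10000, with intervals that did not overlap, in lists whose covered length was greatest for SOX2-OFF.

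**Figure D2:**
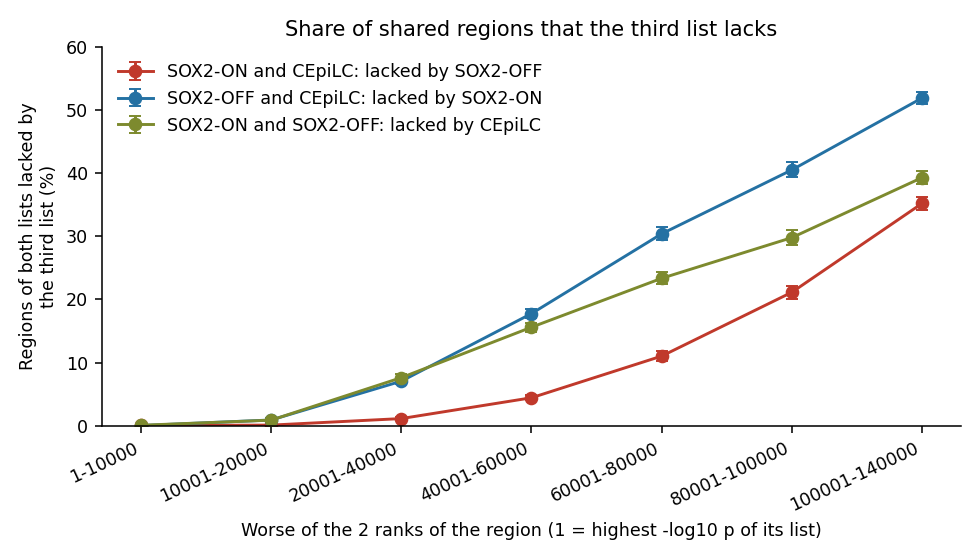
Percent of regions held by 2 lists that the third list lacks (y axis), by the worse of the region's 2 ranks (x axis, 1 being the strongest peak of a list); bars are Wilson 95% intervals over regions. The SOX2-OFF curve is the lowest beyond rank 10000, and all 3 start near 0 and rise to between 35.2% and 52.0%.

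Nothing in strength marked the edge of the rule. A SOX2-OFF peak lay 100 bp or less from 60 members, whose median −log10 p was 3.27 in SOX2-ON and 3.41 in CEpiLC. In 141 regions just outside the rule a SOX2-OFF peak overlapped the others by at most 100 bp, with medians of 3.26 and 3.46, and 3.09 in SOX2-OFF. The median member lay 4314 bp from the nearest SOX2-OFF peak, 724 members (13.0%) lay within 1 kb and 25.1% lay beyond 10 kb.

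The strongest members by the naming rule were a mixed group. First was the intergenic member at chr16:17222296-17222463, 168 bp wide and 11.1 kb from the start of Hic2, a transcriptional repressor gene. Its fold enrichment was 16.3 in SOX2-ON (rank 12) and 11.4 in CEpiLC (rank 15). The nearest SOX2-OFF peak lay 1584 bp away with a −log10 p of 21.9, at a place where the other lists also had peaks. Second was chr15:37203209-37203391, 29.6 kb from Grhl2, a factor of epithelial identity, with 4.30-fold and 4.44-fold enrichment in 183 bp. The width of these members and the sequence features given above were not tested as a cause of their absence in SOX2-OFF.

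Broader strong members lay in intergenic DNA and introns. The member at chr10:19328981-19330115, 26.4 kb from Olig3, a factor of the dorsal spinal cord and hindbrain, was 1135 bp wide with 3.42-fold enrichment in SOX2-ON and 2.74-fold in CEpiLC, and the nearest SOX2-OFF peak was 8728 bp away. In an intron of Usp7, a deubiquitinase gene, chr16:8778612-8779248 had 4.51-fold enrichment in SOX2-ON (−log10 p 144) and 2.29-fold in CEpiLC (10.2). There a SOX2-OFF peak of 1.43-fold enrichment and rank 128033, near the foot of its list, lay 943 bp away. In an intron of Smoc2, a secreted calcium-binding protein gene, chr17:14301461-14302924 had 4.10-fold and 2.18-fold enrichment with no SOX2-OFF peak for 12752 bp. Near Fzd9, a WNT receptor gene, chr5:135253632-135254348 had 2.69-fold and 1.93-fold enrichment 2402 bp from the start.

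The other members among the first 20 lay nearest Slc35f4, Gm3667, Gm14444, Gm10340, Apbb1ip, Dcc, Yipf7, Galnt5, Prr19, Gad2, D830030K20Rik, Tenm4, Dtna and Cacna2d1. Their fold enrichments ranged from 2.00 to 4.48 in SOX2-ON and from 1.80 to 3.13 in CEpiLC. In 4 of the first 20 the central 50 bp occurred more than once on the autosomes, with 52 copies for the member nearest Gm3667, and 4 of the 20 were more than 50% repeat. Of the 20, 4 lay on chromosome 14, where 36 members and 374 regions fell within the first 8 Mb. Among them 10 were intergenic and 3 lay within 1 kb of an annotated start, of which 1, at Prr19, covered the start of a coding gene.

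**Figure D3:**
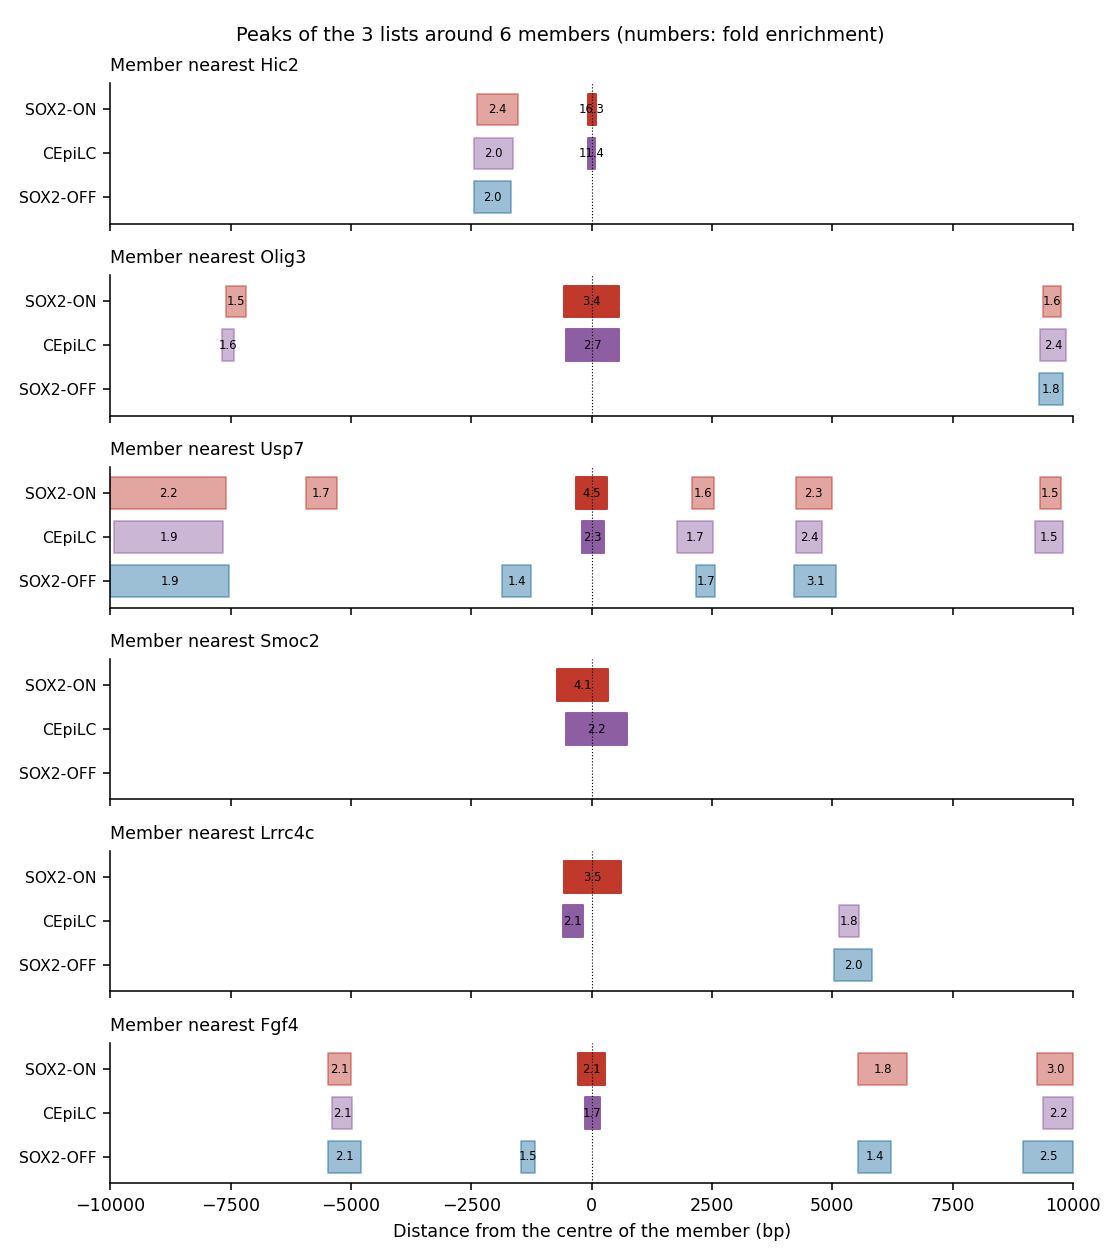
Peaks of the 3 lists as bars along 20 kb around 6 members, by distance from the member's centre in bp; the number on each bar is its fold enrichment, and solid bars form the member. At all 6 a SOX2-ON and a CEpiLC bar form the member with no SOX2-OFF bar over the member, while SOX2-OFF bars accompany some flanking peaks near Hic2, Olig3, Usp7, Lrrc4c and Fgf4 and are absent at others near Olig3 and Usp7.

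Members lay away from promoters, as did the other regions that lacked a list. Within 1 kb of a coding start were 177 members, 3.17% (2.74 to 3.66), compared with 26.5% of regions of all 3 lists, a difference of −23.3 percentage points (Newcombe 95% interval −23.9 to −22.7). In the mirror classes the shares were 2.86% of regions of SOX2-OFF and CEpiLC (difference 0.31, −0.22 to 0.87) and 2.19% of regions of SOX2-ON and SOX2-OFF (0.98, 0.45 to 1.54). Regions of SOX2-ON, SOX2-OFF or CEpiLC alone had 1.63%, 1.67% and 2.30%. The median member lay 24.99 kb from a coding start, and 896 (16.03%) lay beyond 100 kb. Introns of coding genes held 2372 members (42.4%) and intergenic DNA 2059 (36.8%).

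Coding exons away from starts held 263 members, 4.70% (4.18 to 5.29). This share was 2.41% in regions of SOX2-OFF and CEpiLC, 3.10% in those of SOX2-ON and SOX2-OFF and 3.06% in those of all 3 lists. The differences were 2.29 (1.70 to 2.93), 1.61 (0.96 to 2.28) and 1.64 (1.09 to 2.25) percentage points. They were not weighted for GC content or strength. No share of coding exons was computed for regions of a single list or for all merged regions, so this count has no background share. Members had a median GC content of 51.5% over their central 200 bp, against 49.5% in both mirror classes and 53.0% in all 3 lists. Repeats made up 17.3% of their central bases on average, and 30.2% in regions of SOX2-ON and SOX2-OFF.

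SOX matches were more frequent in members than in regions of SOX2-OFF and CEpiLC or of all 3 lists, but only in the central window. They were not more frequent than in regions of SOX2-ON and SOX2-OFF, and lay near the share of all merged regions. The SOX letters occurred in the central 200 bp of 196 members, 3.51% (3.06 to 4.02), and in 3.21% of all merged regions, a share within that interval. The share was 2.25% in regions of SOX2-OFF and CEpiLC, 1.25 percentage points lower (0.73 to 1.83), and 2.35% in regions of all 3 lists, 1.16 lower (0.68 to 1.69). It was 3.66% in regions of SOX2-ON and SOX2-OFF, against which the interval of the difference included 0, and 6.57% in regions of SOX2-ON alone. Over whole regions, whose median width was 641 bp in members, 745 bp in SOX2-OFF and CEpiLC and 1351 bp in all 3 lists, the shares were 10.9%, 10.4% and 15.8%, so that the first difference was small and the second reversed. The same letters read backwards (GTAACAA) keep the base composition but share the stretch AACAA with the SOX letters. They can thus include SOX-like sites. They occurred in 1.52% of members, 1.43% of regions of SOX2-OFF and CEpiLC, and 1.38% of regions of all 3 lists.

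The OCT-SOX composite, where OCT4 and a SOX factor sit side by side, had a like pattern in the central window. It was found in 63 members, 1.13% (0.88 to 1.44), against 0.577% in regions of SOX2-OFF and CEpiLC (difference 0.55, 0.26 to 0.88) and 0.707% in regions of all 3 lists (0.42, 0.16 to 0.74). The share of all merged regions, 0.928%, lay within the interval of members. Regions of SOX2-ON and SOX2-OFF had nearly the same share as members, 1.09% (difference 0.03, −0.30 to 0.40), and regions of SOX2-ON alone had 2.04%. Over whole regions it was found in 3.29% of members, 2.93% of regions of SOX2-OFF and CEpiLC and 5.21% of regions of all 3 lists, so that the last contrast reversed. Only 14 of the 63 also had an exact SOX match. The POU/OCT letters alone were at 3.60% against 3.86% and 3.23%, with differences whose intervals included 0, and at 3.61% in all merged regions.

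TCF/LEF, T-box, CDX/HOX and AP-1 letters were rarer in members than in regions that SOX2-OFF shared with CEpiLC. For all of these but AP-1, members lay near the share of all merged regions. For CDX/HOX the direction turned once the class of SOX2-OFF and CEpiLC was weighted to the GC content and CEpiLC strength of members (6.45% against 6.67% in members). TCF/LEF letters, the site of the WNT effectors, occurred in 3.26% of members against 4.45% (difference −1.19, −1.77 to −0.58). The T-box letters, bound by T and EOMES among others, occurred in 3.51% against 4.54% (−1.03, −1.62 to −0.41), CDX/HOX letters in 6.67% against 7.56% (−0.89, −1.68 to −0.07), and AP-1 letters (TGANTCA) in 5.78% against 7.68% (−1.90, −2.65 to −1.11). In all merged regions these 4 motifs occurred in 3.37%, 3.48%, 7.12% and 6.46%. Those shares lay within the intervals of members for TCF/LEF (2.82 to 3.75), T-box (3.06 to 4.02) and CDX/HOX (6.05 to 7.36). For AP-1 it lay just above the interval of members (5.20 to 6.42). The E-box of SNAI and ZEB (CAGGTGN) was instead more frequent in members, at 19.9% against 17.97% (1.88, 0.65 to 3.14) and 18.1% of all regions. Weighted to the GC content and CEpiLC strength of members, regions of SOX2-OFF and CEpiLC held E-box matches at 19.5%, close to members.

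Against regions of SOX2-ON and SOX2-OFF, members had fewer GATA (2.65% against 4.64%), FOX (TGTTTAC; 2.43% against 3.16%), TEAD (ACATTCC; 3.06% against 3.88%), AP-1, ETS (CCGGAAG; 1.11% against 2.85%), CTCF (3.13% against 4.35%) and E-box matches, and more ZIC matches (10.6% against 7.23%). Against regions of all 3 lists, members had fewer ETS (3.10% there) and CTCF matches (5.98%), and more SOX, composite, T-box, GATA, FOXH1 (TGTGNATT), KLF and E-box matches. Of these, T-box, GATA and E-box matches were no longer more frequent once GC content and strength were weighted. The differences in ETS, KLF and FOXH1 became small, with weighted shares of 1.38%, 6.30% and 2.87% against 1.11%, 6.64% and 3.09% in members. In all merged regions GATA, FOX, TEAD, ETS, CTCF and ZIC matches occurred in 3.02%, 2.65%, 3.01%, 1.85%, 3.48% and 9.37%. FOXH1 and KLF matches occurred there in 3.14% and 5.65%. The other motifs, OTX (TAATCCC), ESRRB/NR5A2 (CAAGGTCA) and MEIS (TTGACAG), had intervals that included 0 in all comparisons and occurred in 2.23%, 1.42% and 2.71% of all merged regions. Of the 60 intervals over 20 motifs and 3 classes, those against SOX2-OFF and CEpiLC lay above 0 for 3 motifs and below it for 4, those against SOX2-ON and SOX2-OFF for 1 and 7, and those against all 3 lists for 7 and 2, without adjustment for their number.

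**Figure D4:**
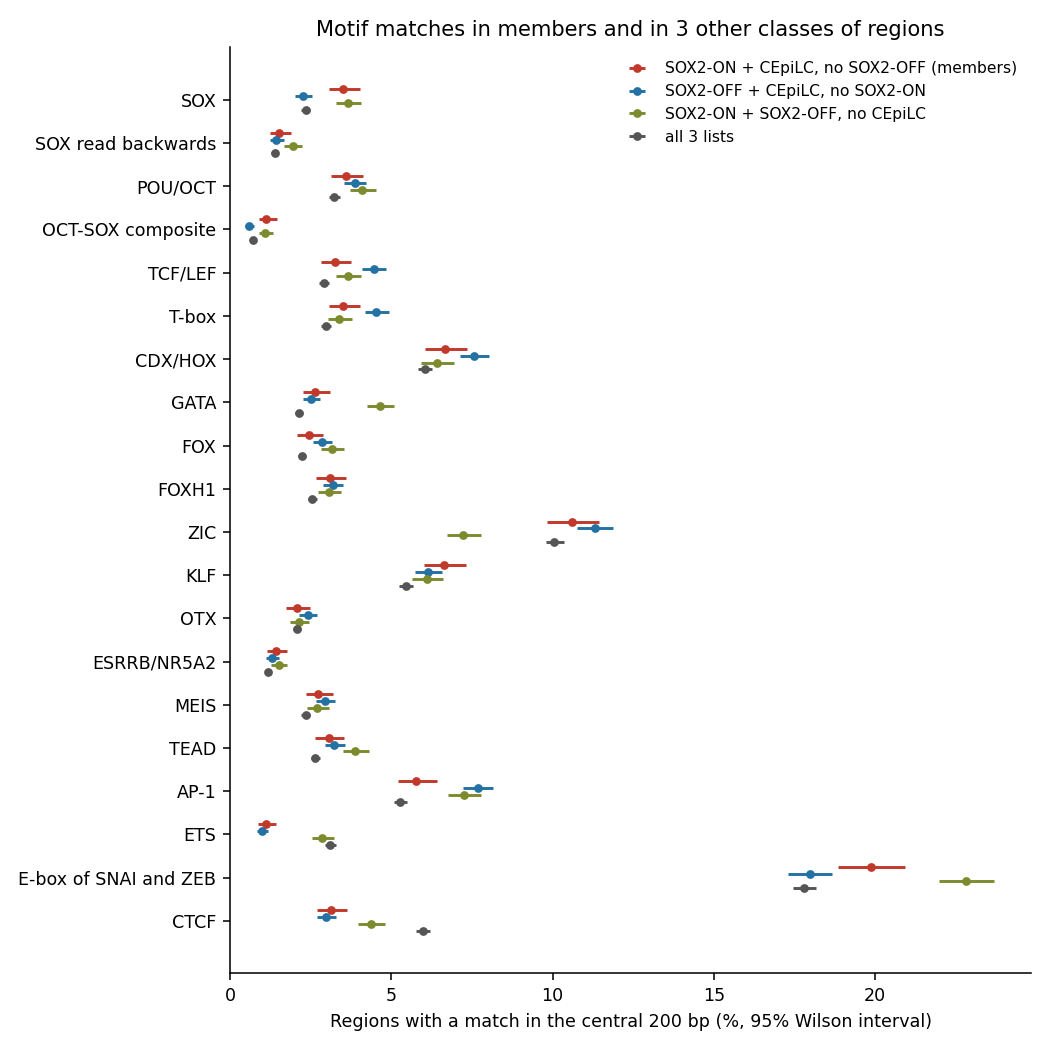
Percent of regions with a match in their central 200 bp (x axis) for each of 20 motifs (rows), in members and in the 3 other classes held by at least 2 lists; bars are Wilson 95% intervals over regions. Members lie to the right of the SOX2-OFF and CEpiLC class for SOX and the OCT-SOX composite, and to its left for TCF/LEF, T-box, CDX/HOX and AP-1, of which CDX/HOX turned when GC content and strength were weighted (not drawn).

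Among members, SOX matches rose with peak strength in SOX2-ON. The share was 2.29% in the 25% of members with the lowest −log10 p (1.63 to 3.21), 2.93% and 3.08% in the next groups, 4.77% between the 75th and 90th percentile and 7.16% above the 90th (5.30 to 9.60, 40 of 559). The top share exceeded the lowest by 4.87 percentage points (2.79 to 7.40), whereas the letters read backwards differed by 0.54 (−0.74 to 2.25). The composite rose from 0.644% to 2.50% (difference 1.86, 0.70 to 3.54), POU/OCT from 2.58% to 6.80% (4.22, 2.17 to 6.72), CDX/HOX from 5.79% to 11.4% (5.66, 2.92 to 8.77) and GATA from 2.29% to 4.83%. T-box matches went the other way, from 4.51% to 1.43% (−3.08, −4.48 to −1.40). GC content also moved with strength, as given below, and only SOX and its letters read backwards were split by it. Whether the other trends follow GC content was not tested.

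Ordered by strength in CEpiLC instead, the same members showed no such rise. SOX matches occurred in 2.79% of the weakest 25% and in 3.22% above the 90th percentile, a difference of 0.43 (−1.11 to 2.39). TCF/LEF matches increased from 2.43% to 4.83% (2.40, 0.63 to 4.61) and CTCF matches from 2.00% to 5.72% (3.72, 1.86 to 6.05). In the mirror class of SOX2-OFF and CEpiLC, ordered by SOX2-OFF, SOX matches changed by −0.27 (−1.14 to 0.77), while TCF/LEF rose from 3.21% to 8.57% and T-box from 3.46% to 6.57%. Regions of SOX2-ON and SOX2-OFF, however, showed a like rise of SOX with SOX2-ON strength, from 2.40% to 6.97%, so that it was not particular to members.

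GC content moved with strength, from a median of 52.5% in the weakest members to 47.5% in the strongest by SOX2-ON. In members at or below the median GC content the SOX share rose from 3.82% to 8.56% between these groups (difference 4.75, 1.84 to 8.01). Above it the share was 1.04% and 2.36%, a difference of 1.32 with 3 matches among 127 strong members and an interval that included 0 (−0.53 to 5.70). The letters read backwards differed by −0.30 (−2.11 to 1.75) at or below the median GC content. Above it they differed by 1.85 (−0.35 to 6.56), more than SOX did there. Density by distance from the centre was compared as well. In the 25% strongest by SOX2-ON, SOX matches occurred at 300 per Mb within 50 bp of the centre (exact Poisson 95% interval 217 to 406) and at 182 per Mb between 400 and 500 bp (136 to 240), intervals that overlapped. Over all members the densities were 188 (154 to 227) and 150 (128 to 175), a flatter profile. In regions of SOX2-OFF and CEpiLC, taken whole and not by strength, the densities were 111.4 (93.6 to 132) and 157 (142 to 173).

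**Figure D5:**
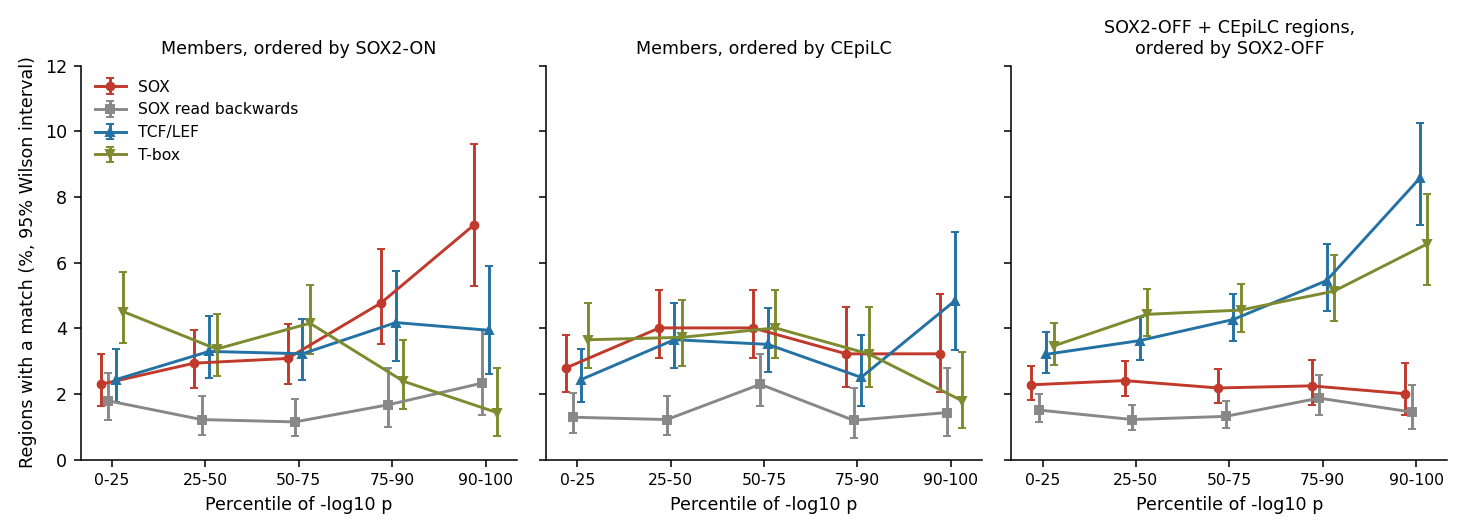
Percent of regions with a match (y axis, Wilson 95% intervals) by percentile of −log10 p (x axis) for 4 motifs, in members ordered by SOX2-ON (left) or CEpiLC (middle) and in regions of SOX2-OFF and CEpiLC ordered by SOX2-OFF (right). SOX reaches 7.16% in the left panel and stays between 2.00% and 2.40% in the right one, where TCF/LEF reaches 8.57%.

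The SOX shares were also compared after giving the other classes the members' spread of GC content and peak strength. Regions of all 3 lists, weighted in this way over 125 strata, held SOX matches at 2.42%, and regions of SOX2-OFF and CEpiLC, weighted on GC content and CEpiLC strength, at 2.04%, against 3.51% in members. Regions of SOX2-ON and SOX2-OFF came to 2.89%, below the members, where unweighted they had been at 3.66%. The weighted CTCF share of regions of all 3 lists was 4.24% in place of 5.98%. Their shares of T-box (3.68% against 3.51% in members), GATA (2.70% against 2.65%) and E-box matches (20.3% against 19.9%) came to lie above those of members, so that the direction turned for these 3 motifs.

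Members were then counted around 12 lists of genes, within a gene or 50 kb of it. Together the 147 listed genes on these autosomes had 131 members among 3118 regions (4.20%, 3.55 to 4.96), near the 3.88% of all merged regions. Genes of naive pluripotency had 13 members among 229 regions (5.68%, 3.35 to 9.47), at 8 of 10 genes. They included 3 around Tfcp2l1, 2 each around Nr5a2, Esrrb and Dppa5a, and 1 each around Klf5, Tbx3, Tcl1 and Fgf4. The Fgf4 member, chr7:144851314-144851872, had 2.07-fold and 1.70-fold enrichment 9514 bp from the start of this FGF ligand gene. That of Tcl1, a cofactor of AKT signalling, covered its start with 1.70-fold and 1.67-fold enrichment.

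Genes of the formative and primed epiblast had 18 members among 337 regions (5.34%, 3.40 to 8.28). Of these, 7 lay around the DNA methyltransferase gene Dnmt3a and 3 around Dnmt3b. Around Pou5f1, which encodes OCT4, there were 2, the better ranked 3116 bp from its start with 1.37-fold and 1.47-fold enrichment. Around Lin28a, an RNA-binding protein gene of pluripotent cells, 1 member had 2.17-fold and 1.75-fold enrichment.

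Genes of the anterior epiblast and neural plate had 9 members among 227 regions (3.96%), 3 of them around Lhx2 and 2 around Six3, both factors of the forebrain and eye field, and none around Pax6. The list of neural border, crest and spinal cord genes had 12 among 246 (4.88%), including 5 around Gli3, a mediator of hedgehog signalling, and 3 around Pax7. Early streak and mesendoderm genes had 7 among 248 (2.82%, 1.37 to 5.71), with 1 around Nodal and 2 around Sox17. Caudal epiblast and paraxial mesoderm genes had 9 among 333 (2.70%, 1.43 to 5.06). Of the regions of SOX2-ON and CEpiLC around a list, SOX2-OFF lacked from 5.13% (117 regions, housekeeping genes) to 16.3% (92 regions, trophoblast and extraembryonic endoderm genes), against the background of 11.1%. The caudal list stood at 5.29% of 170 regions and the naive list at 14.4% of 90, both within the range of these control lists.

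Single caudal loci differed. None lay around T, where 9 regions were in all 3 lists, nor around Sox2. Around Cdx2, a caudal homeobox gene, 11 regions were in all 3 lists and 1 was a member, chr5:147354433-147355036, in an intron of the neighbouring gene Flt3, with 1.55-fold and 1.62-fold enrichment and the nearest SOX2-OFF peak 12699 bp away. Cdx1 had 2 members. The Meis3 member, 13.8 kb from the start of this homeobox gene, had 1.69-fold enrichment in SOX2-ON and 2.12-fold in CEpiLC, where its −log10 p was 9.69. The Tbx6 member, 4674 bp from the start of Gdpd3, lay 13 bp from a SOX2-OFF peak. Around Greb1 a member 32.1 kb from the start held a SOX match, with 1.58-fold and 1.66-fold enrichment.

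Genes of the WNT pathway had 13 members among 306 regions (4.25%, 2.50 to 7.13), 6 of them around the effector gene Tcf7l2, 2 around its relative Lef1, 2 around the ligand gene Wnt8a and 1 each around Ctnnb1, which encodes β-catenin, Sp5 and the receptor gene Fzd10. The FGF list had 22 among 653 (3.37%), of which 14 lay around Fgfr2, whose annotated body spans 2.96 Mb in the release used. A member 3912 bp from the start of the feedback inhibitor gene Spry2 had a −log10 p of 21.4 in SOX2-ON and 3.33 in CEpiLC, and TCF/LEF, CDX/HOX and GATA matches. SOX family genes had 9 among 173 (5.20%, 2.76 to 9.59), 2 each around Sox6, Sox8 and Sox17.

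The lists of other cell types and of housekeeping genes gave shares in the same range. Feeder fibroblast genes had 7 members among 216 regions (3.24%), trophoblast and extraembryonic endoderm genes 15 among 235 (6.38%, 3.91 to 10.3), of which 4 lay around Hnf4a, and housekeeping genes 6 among 210 (2.86%). The interval of the trophoblast and extraembryonic endoderm list was the only one of the 12 to leave out 3.88%, and only just. The member of any list that was strongest in SOX2-ON was in an intron of Tbp, which encodes the TATA-binding protein, at chr17:15510397-15511455, with 4.15-fold enrichment in SOX2-ON, 1.68-fold in CEpiLC, and SOX and AP-1 matches.

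Members were spread over many genes. They were nearest to the coding starts of 3978 genes, 2888 of which had 1 member and 36 had 5 or more. Vrk1, a kinase gene, had 10 among 93 regions, over 756 kb, and Zfp608, a zinc finger gene, 8 among 79, over 980 kb. Ctnnb1, Dnah8, Gm4791, Tcf7l2 and Zfp217 had 7 each. Those of Zfp608 had a −log10 p from 4.04 to 25.9 in SOX2-ON and from 2.99 to 8.66 in CEpiLC. Those of Ctnnb1 stayed at or below 4.52 and 4.00. Another member lay within 10 kb of 740 members (13.2%).

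A coding start was covered by 102 members, and for 60 of them SOX2-OFF had no peak within 1 kb of any coding start of the gene. The rule already keeps SOX2-OFF peaks off these regions, and no such count is given for the other classes. The number is thus a description and has no background share. The best ranked of those 60 was at Prr19, chr7:25301051-25301481, with 2.00-fold and 1.80-fold enrichment and a SOX2-OFF peak 1740 bp away. Next among those 60 came Aox3, an aldehyde oxidase gene (1.83 and 2.17), Gm5134 (1.97 and 1.66), Napsa, an aspartic protease gene (1.88 and 1.77), and Rnase1 (2.19 and 1.76). At Dpm3 a member of 2.42-fold and 1.70-fold enrichment covered a start while a SOX2-OFF peak lay 191 bp away. By chromosome, members made up 2.69% (chromosome 3) to 4.78% (chromosome 17) of the merged regions.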

How the data were processed

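ATAC-seq was done on 1 library of each state (SOX2-ON, SOX2-OFF and CEpiLC). The deposited files were broad peak lists called by the authors with MACS2 on mm10, 1 list per library, after trimming with Trim Galore and alignment with BWA. In them, the fold (ratio) column deposited by the authors is enrichment over the local background, the deposited −log10 columns hold p-values and q-values, and the deposited score, about 10 times the −log10 q, was not used. Read counts and depth are not given in the sources used here, and neither are tool versions.

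The peaks were merged with a gap of 0 bp on 16 autosomes, as checked against bedtools 2.31.1, and each region took the values of its best peak per list. Ranks ran over each whole list by −log10 p, 1 being the strongest. Positions were set against GENCODE M21 and sequence against RefSeq GRCm38. Motifs were matched on both strands of the central 200 bp, with exact letters except 3 mismatches for the OCT-SOX composite and 1 for CTCF. Intervals are Wilson (shares), Newcombe (differences) or exact Poisson (densities) at 95%, and cover counting error over regions of single libraries, not replicate error. Named members were the first 20 by the worse of both ranks and the best ranked per listed gene. The members, gene lists and motifs were chosen with earlier results of these data known. Scripts used Python 3.11.15, numpy 2.4.6, pandas 2.3.3, scipy 1.17.1 and matplotlib 3.10.9, and were tested on simulated data.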

Additional observations from a re-analysis of the deposited data

How the results depend on the processing

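With 1 library per state there was no replicate error and no test, and read depth was unknown. No paired analysis was possible because each state had 1 sample. Of 32 alternatives, 15 left a count within 1.5 times its value or a share within its interval, and 17 did not, while 2 for the SOX share (without members over 50% repeat or under 200 bp wide) were chosen after seeing the data. The number of members, 5590, became 1975 with a −log10 q of at least 2 in all lists, 1051 with that limit in SOX2-ON and CEpiLC against the full SOX2-OFF list, and 1198 from the 50000 strongest peaks of each list. The percent lacked by SOX2-OFF, 11.1%, became 5.66%, 3.01% and 4.77% under the same settings, 10.6% with no SOX2-OFF peak within 500 bp and 9.91% with 50% overlap. The share within 1 kb of a coding start, 3.17%, became 2.28% with the limit against the full SOX2-OFF list, 5.01% from the strongest peaks, and 2.61% and 5.01% at 500 bp and 2 kb. The SOX share, 3.51%, became 4.66%, 4.59% and, over whole regions, 10.9%, where regions of SOX2-OFF and CEpiLC held 10.4%, those of SOX2-ON and SOX2-OFF 13.7% and those of all 3 lists 15.8%, so that the contrast with all 3 lists reversed. Members around listed genes fell from 131 to 82 within 20 kb and to 38 with the q limit. With that limit the SOX share was 3.85% in members and 2.07% in regions of SOX2-OFF and CEpiLC.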
